A study of Mus musculus with 3 samples.

Results

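Meis1, Meis2, Meis3, Pbx2 and Pbx3 encode homeodomain transcription factors that act as DNA-binding partners of Hox proteins. Their transcripts were followed in the organ primordia of the embryonic mouse gut. The 5 genes were taken by symbol, through the transcript accession that the array gives for each probe, and they are 5 of 16998 genes with a named probe. Together they had 8 of the 24342 named probes. Meis1, Meis2 and Pbx2 had 2 probes each, and Meis3 and Pbx3 had 1. The study dissected the primordia of the esophagus, the stomach and the intestine from embryos of ICR, an outbred strain, at E11.5 (no mutation or treatment is labelled), and measured total RNA on 1-colour Agilent arrays. Each organ had 1 array, so no difference below has a replicate check and no test between organs was possible. The labels do not say how many embryos gave RNA or whether they were pooled, and the extraction text names the stomach for all 3 samples, so the organ was taken from the title and tissue label.

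Meis and Pbx proteins belong to the TALE class, whose homeodomain carries an extra loop of amino acids. Meis proteins bind Pbx proteins, and Pbx proteins bind many Hox proteins, so that these proteins sit together on joint DNA sites and choose them with more selectivity than a Hox protein alone. Binding to Meis also keeps Pbx proteins in the nucleus. In mice, Meis genes respond to retinoic acid in several embryonic tissues. Hox genes themselves are switched on in nested domains along the gut.

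The labelled organs were checked against 3 defining markers each. In multiples of the array's 75th percentile, Sox2, Trp63 and Pax9 summed to 3.85 (esophagus), 1.78 (stomach) and 0.17 (intestine). For Barx1, Six2 and Nkx6-2 it was 2.03, 27.2 and 0.30, and for Cdx2, Isx and Vil1 it was 0.03, 0.23 and 8.12, so each marker set was highest in the organ it stands for. That percentile stood at a signal of 393 (esophagus), 334 (stomach) and 1023 (intestine), and from 67.9% to 74.0% of spots were well above background. All 3 arrays lay on 1 slide in 1 scan, so organ and place on the slide cannot be told apart. Where a probe was printed several times, its spots varied with a median SD between 0.07 and 0.08 log2 units, depending on the array. This is the spread within an array, and it is the only error that 1 array per organ allows. For a difference between 2 arrays it comes to 0.11 log2 units. It does not cover differences between embryos, dissections or labellings.

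The sequence upstream of the start site is shown for the Meis genes, because Meis1 and Meis3 had the widest ranges over the organs among the 5 genes and Meis2 is the related gene with a narrow range. Each line holds the 250 bases before 1 annotated start of transcription, from RefSeq on build GRCm38.p6. It is written 5′ to 3′ on the strand of the gene, and capitals mark matches to CCAAT or TATAAA on either strand. RefSeq lists 2 (Meis1), 15 (Meis2) and 4 (Meis3) curated transcripts, and any other starts they have were not searched.
Meis1, chr11:19018970-19019219, minus strand: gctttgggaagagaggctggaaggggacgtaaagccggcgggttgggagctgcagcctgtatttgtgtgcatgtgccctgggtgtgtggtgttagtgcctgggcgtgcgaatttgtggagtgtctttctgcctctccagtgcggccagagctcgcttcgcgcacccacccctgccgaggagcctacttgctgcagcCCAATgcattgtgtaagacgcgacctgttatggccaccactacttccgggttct
Meis2, chr2:116064620-116064869, minus strand: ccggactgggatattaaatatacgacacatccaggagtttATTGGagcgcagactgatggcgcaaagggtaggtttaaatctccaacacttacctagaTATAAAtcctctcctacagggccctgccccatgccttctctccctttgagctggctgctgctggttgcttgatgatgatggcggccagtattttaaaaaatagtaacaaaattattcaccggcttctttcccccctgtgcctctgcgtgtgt
Meis3, chr7:16175145-16175394, plus strand: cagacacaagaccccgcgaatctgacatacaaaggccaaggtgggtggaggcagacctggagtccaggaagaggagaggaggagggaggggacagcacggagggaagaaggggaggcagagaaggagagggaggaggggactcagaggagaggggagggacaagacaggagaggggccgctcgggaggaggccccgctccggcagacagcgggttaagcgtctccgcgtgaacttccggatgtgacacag
The Meis1 window had 1 match to CCAAT, 54 bases before the start. The Meis2 window had the reverse complement of CCAAT at 210 bases and TATAAA at 152 bases before the start. The Meis3 window had neither. Of 32851 windows of this length, 33.8% held CCAAT and 12.4% held TATAAA. The core of the Meis site, TGACAG, and the joint Pbx and Hox site, TGATNNAT, were searched on both strands and occurred in 15.9% and 7.68% of windows. Neither of these letter strings was in the Meis1, Meis2, Meis3 or Pbx2 window, which says only that they are not within these bases. The windows differed in composition. G and C made up 59.6% of the Meis1 window, 47.6% of the Meis2 window, 63.6% of the Meis3 window and 77.6% of the Pbx2 window, against a median of 52.4% over the 32851 windows. Pbx2, whose sequence is not printed, had 27 CpG pairs, more than 91.4% of windows, while the Meis genes had from 7 to 13. Pbx3 was not in the promoter table.

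Meis1, best known as a partner of Hoxa9 in blood cells and in leukaemia, gave opposite results with its 2 probes. The brighter probe gave processed signals of 1300 (esophagus), 754 (stomach) and 1037 (intestine). Divided by each array's 75th percentile these were 1.73, 1.17 and 0.02 on the log2 scale. By this probe Meis1 was highest in esophagus, intermediate in stomach and lowest in intestine, with −0.55 log2 units between stomach and esophagus, −1.15 between intestine and stomach, and −1.71 between intestine and esophagus. The last is a 3.26-fold lower level, and of 13905 genes with a value in that comparison 8.0% had a difference of at least that size. The dimmer probe had signals of 311, 367 and 1738, or −0.34, 0.14 and 0.76 on the scaled log2 axis. By that probe the order was turned round, and intestine exceeded esophagus by 1.10 log2 units, or 2.15-fold. Each step, for either probe, was larger than 0.11 log2 units, and the signal was well above background on all 3 arrays, at 17.4 to 85.4 times the local background. Both probes are assigned to the same transcript, NM_010789, and RefSeq lists 2 curated transcripts of the gene. The direction of the Meis1 difference between organs is therefore not settled by these arrays, and every statement below that uses 1 value for the gene uses the brighter probe.

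**Figure D1:**
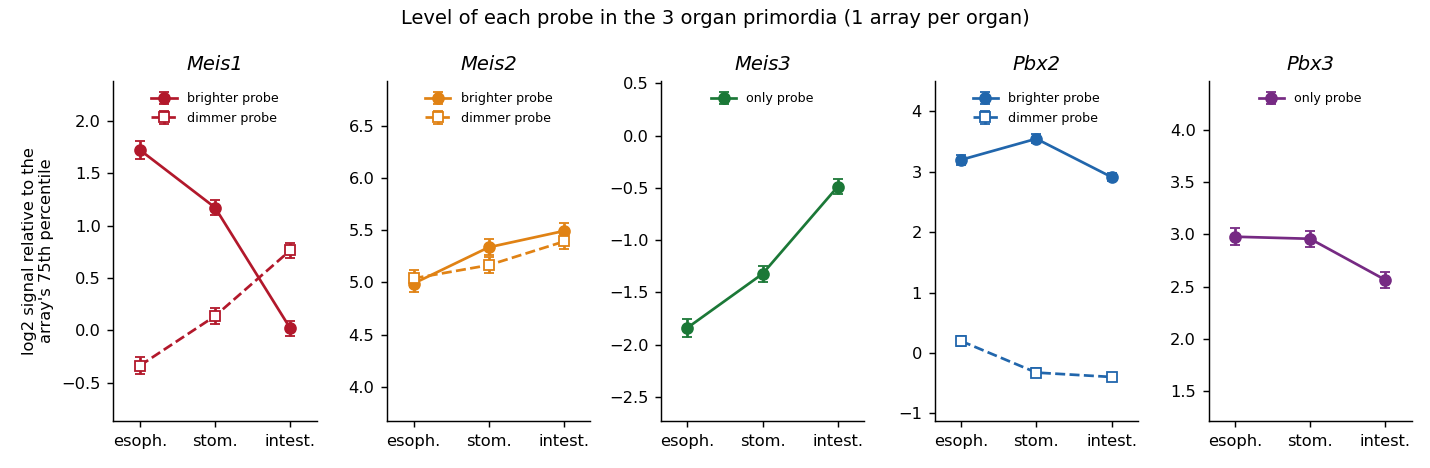
Level of each probe of the 5 genes in esophagus, stomach and intestine, as log2 signal relative to the array's 75th percentile (y axis, its range set for each gene). Filled circles are the brighter or only probe, open squares the dimmer probe, and bars the median SD between spots of the same probe on that array. The Meis1 probes cross, from 1.73 down to 0.02 and from −0.34 up to 0.76, the Meis3 probe climbs from −1.84 to −0.49, and the Meis2 probes lie together between 4.99 and 5.49.

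Meis3, known in zebrafish and frog embryos for patterning the hindbrain and in zebrafish also for colonisation of the gut by neural crest, was higher in intestine. Its 1 probe had signals of 110 (esophagus), 134 (stomach) and 729 (intestine), which scaled to −1.84, −1.32 and −0.49 on the log2 axis. The order was esophagus, then stomach, then intestine, and each step exceeded 0.11 log2 units. Intestine exceeded esophagus by 1.35 log2 units, a 2.55-fold difference, and stomach by 0.83, and stomach exceeded esophagus by 0.52. In intestine against esophagus, 12.5% of genes had a difference of at least this size. Among 12864 genes well above background on all 3 arrays, 5.95% climbed at both steps and spanned at least 1 log2 unit, as Meis3 did. The esophagus spot was 7.53 times its local background, the dimmest reading among the 5 genes. With the normexp background correction, which pulls dim readings together, the difference from esophagus was 0.99, just under 2-fold.

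Meis2, a gene induced by retinoic acid in cultured mouse cells and active in limb, heart and cranial development, had bright spots that differed little between organs. The brighter probe had signals of 12496 (esophagus), 13506 (stomach) and 46079 (intestine), and the other 12931, 11997 and 42967. On the scaled log2 axis the brighter probe stood at 4.99, 5.34 and 5.49, and the other at 5.04, 5.17 and 5.39. Both probes put esophagus lowest and intestine highest, but after quantile normalization the dimmer probe put stomach lowest, at −0.12 against esophagus. Intestine exceeded esophagus by 0.50 with the brighter probe and by 0.35 with the other, and stomach exceeded esophagus by 0.35 and 0.13. The 0.35 became 0.11 after quantile normalization and 0.15 after normexp. These are less than 2-fold, and 48.6% of genes differed at least as much between intestine and esophagus. After median centring the value was 0.998, but that scaling placed the median gene at 0.61, against 0.13 as reported. The 2 probes differed from each other by 0.15 log2 units in this comparison. Of 4604 genes with several probes above background on all arrays, 86.9% had probes at least that far apart.

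Pbx2, a widely expressed Pbx gene whose loss alone leaves mice without an overt defect, was lower in intestine than in esophagus by both probes. The brighter probe had signals of 3608 (esophagus), 3905 (stomach) and 7707 (intestine), or 3.20, 3.55 and 2.91 on the scaled log2 axis. The dimmer probe had 451, 267 and 778, or 0.20, −0.32 and −0.40. The probes did not place stomach alike. Stomach against esophagus was 0.35 by the brighter probe and −0.52 by the dimmer, and stomach and intestine differed by −0.07 with the dimmer probe, which is within the spread between spots. Intestine against esophagus was −0.29 and −0.59. After median centring the brighter probe read 0.21 and the dimmer −0.10, so the sign for the brighter probe depends on the scaling. That scaling placed the median gene at 0.61, against 0.13 as reported, and both probes lay below the median gene either way.

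Pbx3, which mice need for breathing after birth and which also marks enteric neurons in the mouse, had signals of 3099 (esophagus), 2598 (stomach) and 6057 (intestine). On the scaled log2 axis these were 2.98, 2.96 and 2.57. Esophagus and stomach differed by −0.02, within the spread between spots, and intestine was lower than esophagus by −0.41 and than stomach by −0.39. Of the 12864 genes measured in all organs, 30.5% had a smaller range than the 0.41 log2 units of Pbx3. After median centring intestine against esophagus was 0.08, so this sign, too, depends on the scaling. Pbx3 lay below the median gene either way, which stood at 0.61 after median centring and 0.13 as reported.

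Set together, 0 of the 5 genes differed by 2-fold or more between stomach and esophagus, where 9.85% of 13740 genes did so (4.14% higher and 5.71% lower in stomach). Between intestine and esophagus 2 of the 5 passed 2-fold, where 19.9% of genes did. The 1 on the higher side was Meis3, against 8.40% of 14462 genes, and the 1 on the lower side was Meis1 by its brighter probe, against 11.5%. With the other Meis1 probe 2 were on the higher side and 0 on the lower. Between intestine and stomach 1 of the 5 passed 2-fold, where 12.0% of 14384 genes did. It was again Meis1, which was lower, against 7.18% of genes, and 0 were higher, against 4.77%. No member reached 4-fold, where 2.26% of genes did between stomach and esophagus, 5.46% between intestine and esophagus and 2.61% between intestine and stomach. The median of the 5 differences was 0.35 in the first of these comparisons, −0.29 in the second and −0.39 in the third, where that of all genes was 0.15, 0.13 and −0.02. The sign of both medians for intestine rests on the Meis1 probe, and with the probe of smallest difference standing for each gene they were 0.35 and 0.16. After median centring that of intestine against esophagus was 0.21, where the median of all genes was 0.61. With the mean over probes the median for stomach against esophagus was −0.02. Of all genes past 2-fold between intestine and esophagus, 42.2% were higher in intestine, and after median centring 79.4%, so the scaling bears on direction throughout the comparisons with intestine. The 3 comparisons share arrays and are not independent of each other. In RNA from whole primordia, fewer cells that express a gene and less RNA per cell cannot be told apart.

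**Figure D2:**
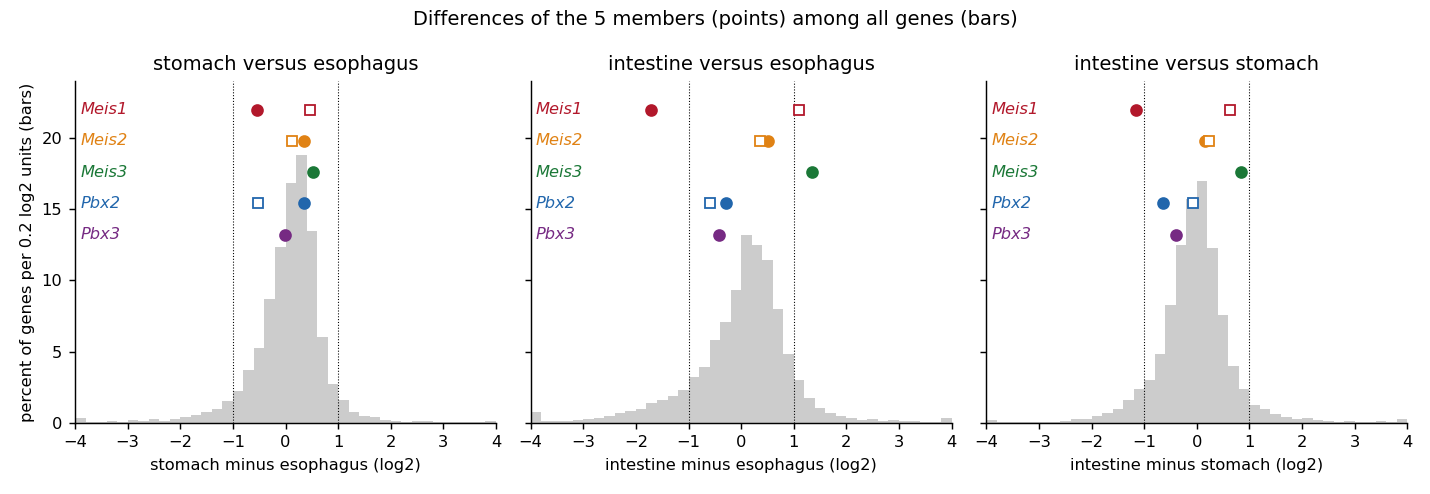
Differences of the 5 genes (points, filled for the brighter or only probe and open for the dimmer) in the 3 comparisons, over the distribution of all genes (grey bars, percent of genes per 0.2 log2 units on the y axis, with values beyond the axis gathered at its ends). The x axis is the log2 difference and dotted lines mark 2-fold. In intestine versus esophagus the Meis1 probes lie at −1.71 and 1.10 and Meis3 at 1.35, and the probes of Meis2, Pbx2 and Pbx3 lie between −0.59 and 0.50.

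Disagreement between probes was more common in the comparisons with intestine. Among the 4604 genes with several probes above background on every array, the median distance between the lowest and the highest probe was 0.38 log2 units between stomach and esophagus, 0.69 between intestine and esophagus, and 0.48 between intestine and stomach. Probes that pointed in opposite directions by at least 2-fold each, as those of Meis1 did between intestine and esophagus, were found for 70 genes in that comparison, which is 1.52%, and for 1 gene between stomach and esophagus. The Meis1 probes lay 2.81 log2 units apart there, and 115 genes, or 2.50%, had probes at least as far apart. Across 3566 genes with exactly 2 such probes, the differences by the brighter and the dimmer probe correlated with a Pearson r of 0.60, 0.39 and 0.36 in the same order of comparisons. These correlations are across genes on the same arrays and are given as a description. Whether transcript forms, position along the transcript, the state of the RNA or binding of related sequences has a part in the Meis1 result was not tested, and the sequences of the probes were not used here.

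**Figure D3:**
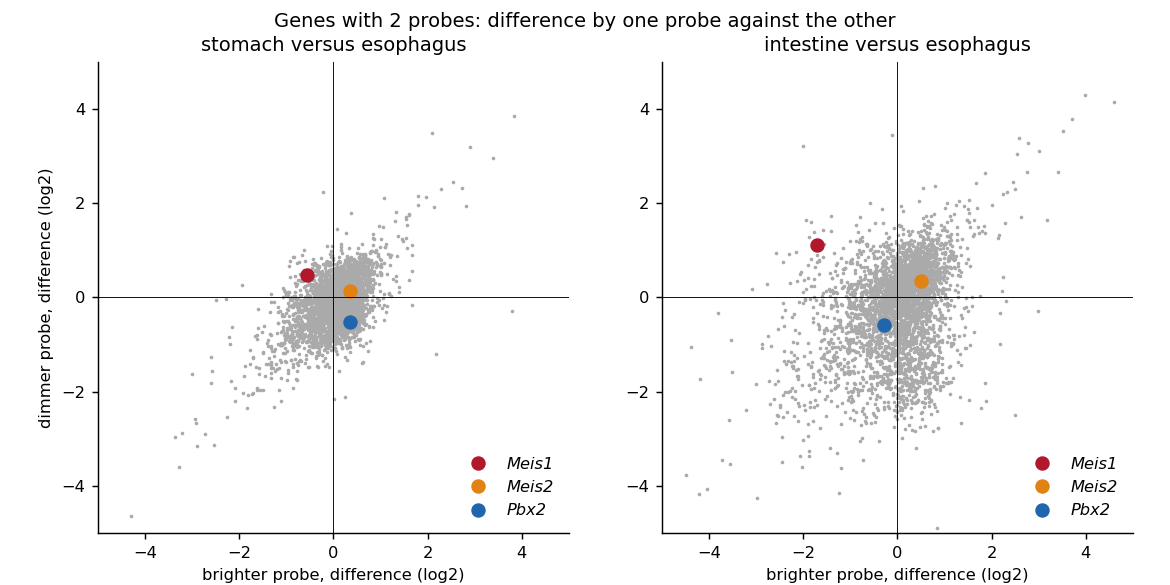
Log2 difference by the dimmer probe (y axis) against that by the brighter probe (x axis) for 3566 genes with exactly 2 probes above background on all arrays, for stomach versus esophagus (left) and intestine versus esophagus (right). Axes end at 5 log2 units, which leaves out 3 and 7 genes. Meis1 lies in the upper left of both panels, at −1.71 and 1.10 in the right one, and Meis2 has the same sign by both probes.

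The other TALE genes and the Pbx-binding protein Pbxip1 were read in the same way. By the brightest probe of each, 1 of 7 exceeded its esophagus level by 2-fold in stomach, 1 of 7 did so in intestine, and 0 differed by 2-fold between intestine and stomach. Over all genes, 4.14% were 2-fold higher in stomach and 8.40% in intestine against esophagus, and 12.0% differed between intestine and stomach. The list median was 0.41, 0.21 and −0.18 in these comparisons, where that of all genes was 0.15, 0.13 and −0.02. Mkx, a regulator of tendon development, was the gene higher in stomach (1.05). Pknox2, a relative of Meis genes that also binds Pbx proteins, was the gene higher in intestine (1.46), yet its dimmer probe gave −1.29. The Pbx4 probes gave 0.16 and 0.15 for intestine against esophagus. Pknox1, a widely expressed partner of Pbx proteins, stood at −0.25, Tgif1 at 0.21 and Tgif2, like Tgif1 a repressor of TGF-beta target genes, at 0.26. Pbxip1, which binds Pbx proteins and hinders their pairing with Hox proteins, stood at −0.46. Meis1 and Pknox2 thus had probes on both sides of 0 in intestine against esophagus, and Meis2, Pbx2 and Pbx4 did not. For Pknox2 this rests on a probe near background, unlike for Meis1.

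**Figure D4:**
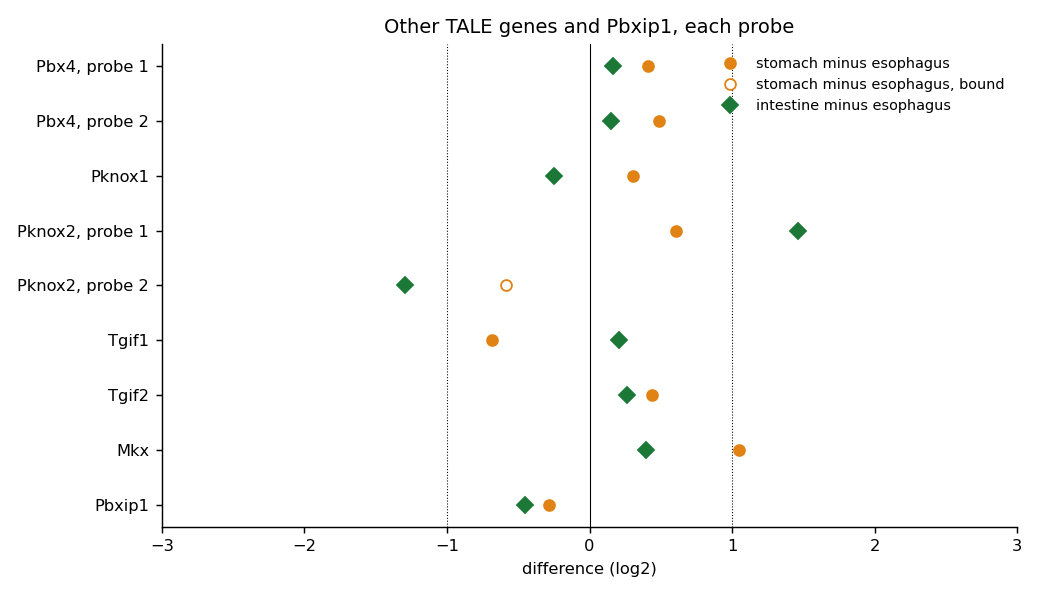
Log2 difference (x axis) of each probe of 6 other TALE genes and of Pbxip1 (y axis, probes numbered from the brightest) for stomach minus esophagus (circles) and intestine minus esophagus (diamonds). The open circle is a bound, because the probe was not well above background in stomach, and dotted lines mark 2-fold. Pknox2 probes lie at 1.46 and −1.29 for intestine, the latter from a probe near background, and the other genes stay within 2-fold there.

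The Hox genes that the cofactors serve were read on the same arrays. Over all genes, 4.14% were 2-fold higher in stomach than in esophagus. In intestine 8.40% were higher and 11.5% lower than in esophagus, and 4.77% higher and 7.18% lower than in stomach. In groups 6 to 8, 5 of 5 measured genes exceeded their esophagus level by 2-fold in stomach and 6 of 7 in intestine, with Hoxa6 (−0.06) the exception. In groups 9 to 13, 9 of 12 passed 2-fold upward in intestine when set against esophagus, and 9 of 12 when set against stomach, where 1 was lower, Hoxb9 (−2.63). Of the 12 values, 7 against esophagus and 9 against stomach are lower bounds. Genes with such a bound entered only because intestine was above background, so they could not have counted as lower there. Between intestine and stomach, 2 of 7 genes in groups 6 to 8 were higher by 2-fold and 3 lower, with a median of −0.47. The 2 higher ones, Hoxc8 and Hoxd8, are lower bounds of the same kind, as they are against esophagus. In groups 1 to 5, 1 of 15 exceeded its esophagus level by 2-fold in intestine, Hoxd1 with a lower bound of 1.58, and 1 was lower, Hoxa5 (−1.02). The median difference between intestine and esophagus was 0.35 in groups 1 to 5 and 2.98 in groups 6 to 8. It was at least 3.05 in groups 9 to 13, where 7 of the 12 values are lower bounds. For the 5 cofactor genes it was −0.29 as reported, where that of all genes was 0.13. The cofactor median was 0.35 with the probe of smallest difference and 0.21 after median centring, which placed the median gene at 0.61. The Hox medians were not taken under these 2 settings, so only −0.29 is on their scale and probe choice. No test of the contrast between cofactor and Hox genes was possible.

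Retinoic acid genes were listed because Meis genes can respond to this signal. Of 15 measured genes, 3 lay 2-fold or more above esophagus in intestine and 9 below it, with a median of −1.08. Over all genes these shares were 8.40% and 11.5%, and the median was 0.13. Aldh1a2 (1.87) and Rdh10 (1.80), enzymes of retinoic acid synthesis, were the highest, and Cyp26a1 (−3.95), which degrades it, and Aldh1a3 (−2.99), another synthesis enzyme, the lowest. The third gene past 2-fold upward, named after its value was seen, was Cyp26b1 (1.38), which also degrades retinoic acid. In stomach 0 of 15 lay 2-fold above esophagus and 3 below, with a median of −0.17. Among all genes 4.14% and 5.71% did so, with a median of 0.15. Regulators of spleen and stomach mesenchyme were listed as well. In this list 6 of 7 genes had a stomach level 2-fold or more above that of esophagus, where 4.14% of all genes did. In intestine 5 of 7 had a level as far below that of stomach, where 7.18% of all genes did. Tlx1 stood at −6.33, −1.77 and −7.41 on the scaled log2 axis in esophagus, stomach and intestine, and was not well above background in the first and the last. Of the 5 cofactor genes, 1 had stomach as its highest organ, Pbx2 by its brighter probe.

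Cell types in the dissected tissue could move with the cofactor genes, and their marker lists are given here in the order esophagus, stomach, intestine, as summed levels relative to the 75th percentile. For the counts below, 8.40% of all genes were 2-fold higher and 11.5% lower in intestine than in esophagus. In stomach 4.14% were higher than in esophagus, and in intestine 7.18% were lower than in stomach. Neuron markers summed to 4.03, 10.1 and 8.80, and 4 of 6 measured ones passed 2-fold upward from esophagus to intestine. Of the 7 listed, Snap25 was not well above background in any organ. Enteric neural crest markers, 8 of 9 with a named probe and all of those well above background in each organ, summed to 14.7, 11.9 and 6.76, and 0 of 8 passed 2-fold upward from esophagus to intestine and 3 downward. Gut mesenchyme markers summed to 161, 115 and 129, with 0 of 7 higher in intestine and 1 lower, and epithelial markers to 32.9, 96.0 and 49.8, with 0 of 6 past 2-fold between intestine and esophagus, 3 of 6 higher by 2-fold in stomach when set against esophagus, and 1 of 6 lower in intestine when set against stomach. Heart markers summed to 108, 2.31 and 3.58, with 6 of 6 lower by 2-fold or more in intestine when set against esophagus. Skeletal muscle markers summed to 1.74, 0.10 and 0.07, with 3 of 3 measured ones lower. Liver markers summed to 9.59, 3.14 and 60.1, with 6 of 6 higher in intestine than in esophagus. Endothelial markers summed to 6.32, 5.19 and 7.72, erythroid markers to 290.1, 401.7 and 279.5, macrophage markers to 2.73, 3.03 and 3.88, and mesothelial markers to 1.94, 2.79 and 2.84. Meis3 was lowest in esophagus, as were the neuron, epithelial, macrophage and mesothelial sums. The macrophage and mesothelial sums also shared its order over the organs, but not every marker did. From stomach to intestine Wt1 (−0.51) and Msln (−2.87) fell and Upk3b (1.45) rose, with a mesothelial median of −0.51. Aif1 also fell there (−0.15), and the other macrophage markers rose. Meis1 by its brighter probe was highest in esophagus, as were the heart, skeletal muscle, neural crest and gut mesenchyme sums. The median of the neural crest markers between stomach and esophagus was nevertheless 0.45. The part of any of these cells in the cofactor values was not tested.

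The genes whose profile over the 3 organs lay nearest to a cofactor profile were found by Euclidean distance between log2 levels centred on their own mean, over 12693 genes. For the brighter Meis1 probe these were Plaa, Aire and Pkp3, at distances of 0.01, 0.02 and 0.02, and 191 genes, or 1.5%, lay within 0.25 log2 units. For the dimmer Meis1 probe they were Gtf2b, Rnf5 and Ctu1, at distances of 0.01, 0.02 and 0.02, and 696 genes, or 5.48%, lay within 0.25. For Meis3 they were Nt5dc1, Rhbdd1 and Gulo, at distances of 0.02, 0.04 and 0.04, and 302 genes, or 2.38%, lay within 0.25. A profile over 3 organs holds 3 values, and a near match draws on no more than these. The probes of Meis2, Pbx2 and Pbx3 ranged by less than 1 log2 unit and were not matched.

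**Figure D5:**
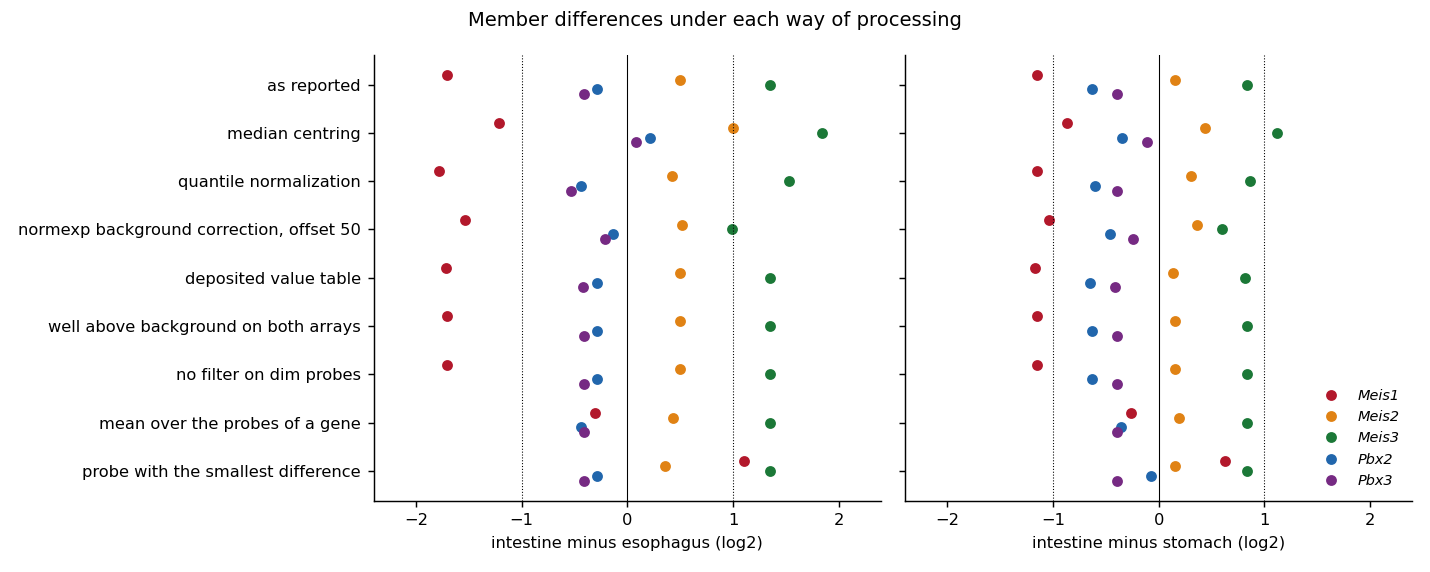
Log2 differences of the 5 genes (x axis) for intestine minus esophagus (left) and intestine minus stomach (right) as reported and under 8 other ways of processing (y axis). Dotted lines mark 2-fold. Meis3 stays to the right of 0 under all 8, from 0.99 to 1.85 on the left. It has 1 probe, well above background on all 3 arrays, so the filters and the probe choices could not move it. Meis1 moves from −1.71 to 1.10 when its other probe stands for it.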

How the data were processed

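Cy3-labelled cRNA of 3 primordia was read on 1 array each. Per the file headers, the authors used Agilent Feature Extraction 10.5.1.1, and the deposited processed signal is an intensity after local background subtraction and correction of spatial trends. A deposited table holds log2 values of the same arrays, which matched log2 signal minus about the 75th percentile (medians −2.97, −3.17 and −3.47 in esophagus, stomach and intestine; after removal of a constant, 99.8% to 99.9% of probes within 0.01), without centring of probes. Its processing is not given in the sources used here.

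Control spots and outlier spots (70 to 111 per array) were left out, and 0 spots were saturated. The log2 processed signal was taken relative to the 75th percentile of all non-control spots on its array and averaged per probe, for 41112 probes. Probes were named by RefSeq accession without version (GRCm38.p6 table; the array design was annotated on an older build, so no gene position was used), and 16770 stayed unnamed, which may include further probes of these genes. A gene was represented by its brightest probe. It entered a comparison if well above background on at least 1 array; with 1 such array the difference is a bound, set against the higher of the dim probe's own signal and the lowest signal that array called well above background. Bounds under 1-fold count as tested and not past the fold, and stay out of medians. Thresholds were 2-fold and 4-fold. Precision is limited by the number of arrays.

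Members and lists were chosen with earlier results of these data known. The rule named all 5 genes with every probe, the other TALE genes listed, apart from 1 that is not reported here, and from each further list up to the 2 highest and 2 lowest in a comparison. For the brighter and the dimmer Meis1 probe and for Meis3, which ranged by at least 1 log2 unit, it also named the 3 nearest profiles. Calling and matching were tested on simulated data. Alternatives were median centring, quantile normalization, normexp on median signals (limma 3.58.1, offset 50), the deposited table, other filters and other probe choices. Tools were Python 3.11.15, numpy 2.4.6 and pandas 2.3.3.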

Additional observations from a re-analysis of the deposited data

How the results depend on the processing

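The count of members at least 2-fold apart was 0 for stomach against esophagus under every alternative run. For intestine against esophagus it was 2 as reported, 1 after normexp background correction and 1 with the mean over probes. With the probe of smallest difference it stayed 2, but both were then higher in intestine. For intestine against stomach it was 1 as reported and 0 with the mean over probes or with the probe of smallest difference, and under median centring it stayed 1 but passed from Meis1 (−0.87) to Meis3 (1.12). Meis1 reversed when its other probe stood for it, to 1.10 for intestine against esophagus, 0.63 for intestine against stomach and 0.47 for stomach against esophagus, and its mean over probes was −0.30, −0.26 and −0.04. Under the other scalings and sources Meis1 kept its sign, as did Meis3 and the probes that stood for Meis2 under all 8 alternatives, while the dimmer Meis2 probe turned to −0.12 for stomach against esophagus after quantile normalization. Meis3 has 1 probe, well above background on all 3 arrays, so the filters and the probe choices could not change its value. Pbx2 and Pbx3 changed sign against esophagus under median centring, which placed the median gene at 0.61 for intestine against esophagus, and between stomach and esophagus Pbx2 gave −0.09 with the mean over probes and Pbx3 0.19 after median centring. The deposited table moved none of the 15 member differences by more than the spread between spots, but it holds the same signals apart from a constant per array. Both filters left the 15 unchanged and could not do otherwise, because all 8 probes were well above background on all 3 arrays. The share of all genes past 2-fold between stomach and esophagus was 9.85% as reported and 3.19% after normexp. Among genes with a usable difference, 20.7% between intestine and esophagus became 33.1% after median centring, and between intestine and stomach 12.4% became 20.6% without the filter on dim probes. Of genes past 2-fold, the share higher in stomach than in esophagus was 42.1% as reported, 63.0% after median centring and 54.2% after quantile normalization. The share higher in intestine than in esophagus was 42.2% as reported, 79.4% after median centring, 57.2% after quantile normalization and 27.3% after normexp. Against stomach these shares were 39.9%, 67.8%, 54.5% and 13.3%. No paired analysis was possible because each organ has 1 array, and no replicate could be left out.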
